A study of Mus musculus with 7 samples.

Results

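MC is a cluster of donor marrow-derived cells in mouse epidermis that the study placed between incoming monocytes and Langerhans-like cells and called converting monocyte-derived cells. Its members were taken as the cells that the deposited annotation assigns to MC, in every library, which gave 2052 of 11899 donor cells in 9 clusters. MC were compared with 3 neighbouring clusters: classical monocytes (Mono, 938 cells), interferon-stimulated gene monocytes (ISG_Mono, 2012 cells) and resident monocyte-derived Langerhans cells (Res_mLC, 1651 cells). All donor cells came from female C57BL/6 bone marrow carrying CD45.1. The recipients were C57BL/6 males carrying CD45.2 that had received a lethal dose of irradiation. Donor cells were sorted as CD11b+MHCII+ cells from the epidermis 3 weeks after bone marrow transplantation (BMT). The labels give 3 BMT libraries and 1 BMT + T cells library. The study's design text, in contrast, names CD4 T cells together with Matahari CD8 T cells, which recognise a male antigen, for the recipients without setting any library apart, so what separates the BMT from the BMT + T cells recipients rests on the sample labels alone. Mice were pooled, the sort kept only MHCII+ cells, and no label ties a library to separate animals, so p-values measure only the spread between these libraries.

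The libraries differed widely in size. They held 2572, 8382, 226 and 719 cells in BMT replicates 1, 2 and 3 and the BMT + T cells library, and values of all 4 libraries are given in this order throughout. The same libraries held 34011138, 64343817, 2982296 and 9405095 unique molecular identifiers (UMIs, each marking 1 captured RNA molecule). MC numbered 394, 1610, 18 and 30 cells, so in BMT replicate 3 they fell under the minimum of 20 cells per library and cluster. The MC levels of BMT replicate 3 entered no difference between clusters, although they are printed. ISG_Mono also fell under that minimum there, with 16 cells. Mono and Res_mLC of BMT replicate 3, with 82 and 51 cells, stayed in the fitted model. Differences between clusters are estimates of that model and not means of the differences within libraries. Median UMIs per MC cell were 16978.5, 9832, 7905 and 16972, above those of Mono in all libraries but BMT replicate 3 (10821, 5382, 10802 and 11693). Levels are therefore UMIs per 10000 UMIs of the cell (CP10K), averaged over the cells of a cluster within a library. The library names pair BMT replicates 1 and 2 (DM1 and DM2) and, apart from them, BMT replicate 3 with the library labelled BMT + T cells (DMBMT and DMBMTT), and 8 barcodes occurred in 2 libraries, among them those of 2 MC cells.

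Langerhans cells are the antigen-presenting cells of the epidermis. They hold to keratinocytes through adhesion molecules such as EpCAM and E-cadherin and carry the lectin langerin, encoded by Cd207. When the network is lost, monocytes that enter from the blood can rebuild it, and on the way they shed monocyte proteins and take up epithelial adhesion genes. Monocytes can also become dendritic cells or macrophages in inflamed skin.

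MC made up a smaller share of the donor cells in the 2 libraries with few cells. The shares were 15.3% (exact 95% Clopper-Pearson interval 13.9 to 16.8), 19.2% (18.4 to 20.1), 7.96% (4.79 to 12.3) and 4.17% (2.83 to 5.90), where the intervals cover counting error only. The BMT + T cells library lay below every BMT library, but its interval overlapped that of BMT replicate 3, and with 1 library against 3 a one-sided exact permutation test could not go below p = 0.25. On the deposited map MC lay below ISG_Mono, which lay below Mono, with Res_mLC to the right.

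**Figure D1:**
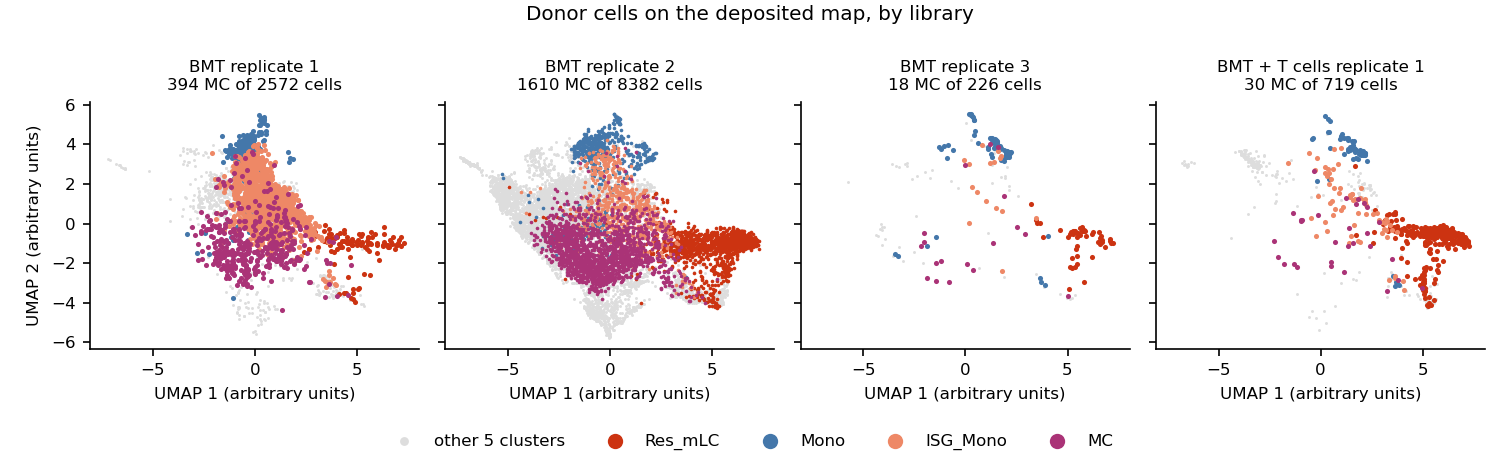
Each panel plots the donor cells of 1 library on the deposited UMAP coordinates (both axes in arbitrary units), with MC, Mono, ISG_Mono and Res_mLC coloured and the other 5 clusters in grey. The 394 and 1610 MC cells of BMT replicates 1 and 2 filled the centre of the map below ISG_Mono, while the 18 and 30 MC cells of the other 2 libraries were scattered more widely.

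In MC, the level of the marker Epcam, the epithelial adhesion molecule, lay between those of monocytes and resident Langerhans-like cells. The marker Cd74 did not set MC apart. Epcam (chromosome 17, positions 87635979 to 87651127, GRCm38.p6) stood at 9.60, 8.63, 3.60 and 12.5 CP10K in MC. In Mono it stood at 0.245, 0.345, 0.218 and 0.659 CP10K, and in ISG_Mono at 3.30, 3.81, 1.53 and 8.23 CP10K. Res_mLC held 26.0, 18.7, 22.3 and 24.1 CP10K, so that in every library the order was Mono, ISG_Mono, MC and Res_mLC. Such a level was not particular to MC, which held 10.2 ± 2.01 CP10K (SD, n = 3 libraries). The migrating Langerhans-like cells held 6.30 ± 2.33 CP10K (SD, n = 2 libraries). The cycling Langerhans-like cells held 14.9 ± 0.895 CP10K (SD, n = 3 libraries). The log2 difference of MC from Mono was 4.55 ± 0.38 (SE, 3 libraries with at least 20 MC cells). That from ISG_Mono was 1.09 ± 0.39 and that from Res_mLC -1.14 ± 0.38. Since the clusters were drawn from these same values, all differences between clusters are descriptions, given with their SE and without a p-value. They are on the scale of log2(CP10K + 0.1), which understates the change of genes near 0.

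Cd74, the invariant chain that guards MHC class II molecules, was abundant in all 4 clusters, whose cells had all been sorted as MHCII+. Its level in MC was 263, 203, 286 and 334 CP10K, and in ISG_Mono 270, 203, 287 and 390 CP10K. The log2 difference of MC was 0.41 ± 0.14 from Mono, -0.08 ± 0.15 from ISG_Mono and -0.40 ± 0.14 from Res_mLC.

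MC had the fewest called genes against ISG_Mono and the most against Res_mLC. A gene was called where the absolute log2 difference passed 2, a 4-fold change, with a Benjamini-Hochberg adjusted p under 0.05 over the 7267 genes in the limma model. Against Mono, 25 genes were called higher in MC (0.344% of those tested) and 42 lower (0.578%). Against ISG_Mono, 3 genes were called higher (0.0413%) and 20 lower (0.275%), a total that dropped to 5 without BMT replicate 2 and became 24 higher and 49 lower in limma-voom on summed UMIs. Against Res_mLC, 96 genes were called higher (1.32%) and 56 lower (0.771%). The median log2 difference over all genes tested was -0.01, 0.01 and -0.13 in the same comparisons, so that the levels as a whole were not shifted by more than 0.13. The 5 genes furthest above Mono were Epcam, Dcstamp, Ccl17, Mfge8 and Alox15, and the 5 furthest below it were Plac8, Ccl8, Lyz1, Hp and Ly6c2. Between these ends, the genes that separate Mono from Res_mLC were used to place MC. Res_mLC had 109 genes called higher than Mono (1.5%) and 186 called lower (2.56%). For 94 of the 109 genes the MC difference lay between both ends, with a median of 0.73 above Mono and -1.96 from Res_mLC, and MC were called higher than Mono for 13 of them and lower than Res_mLC for 51. For 163 of the 186 genes MC also lay between, with a median of -1.11 from Mono and 1.60 from Res_mLC, and MC were called lower than Mono for 36 and higher than Res_mLC for 65. On the median gene, MC thus stood nearer to Mono than to Res_mLC at both ends. These genes were picked, in the same fit, for lying far apart in Mono and Res_mLC, so any other cluster could also fall between. No other cluster was placed in this way, so the 94 and 163 genes describe MC and do not set it apart.

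**Figure D2:**
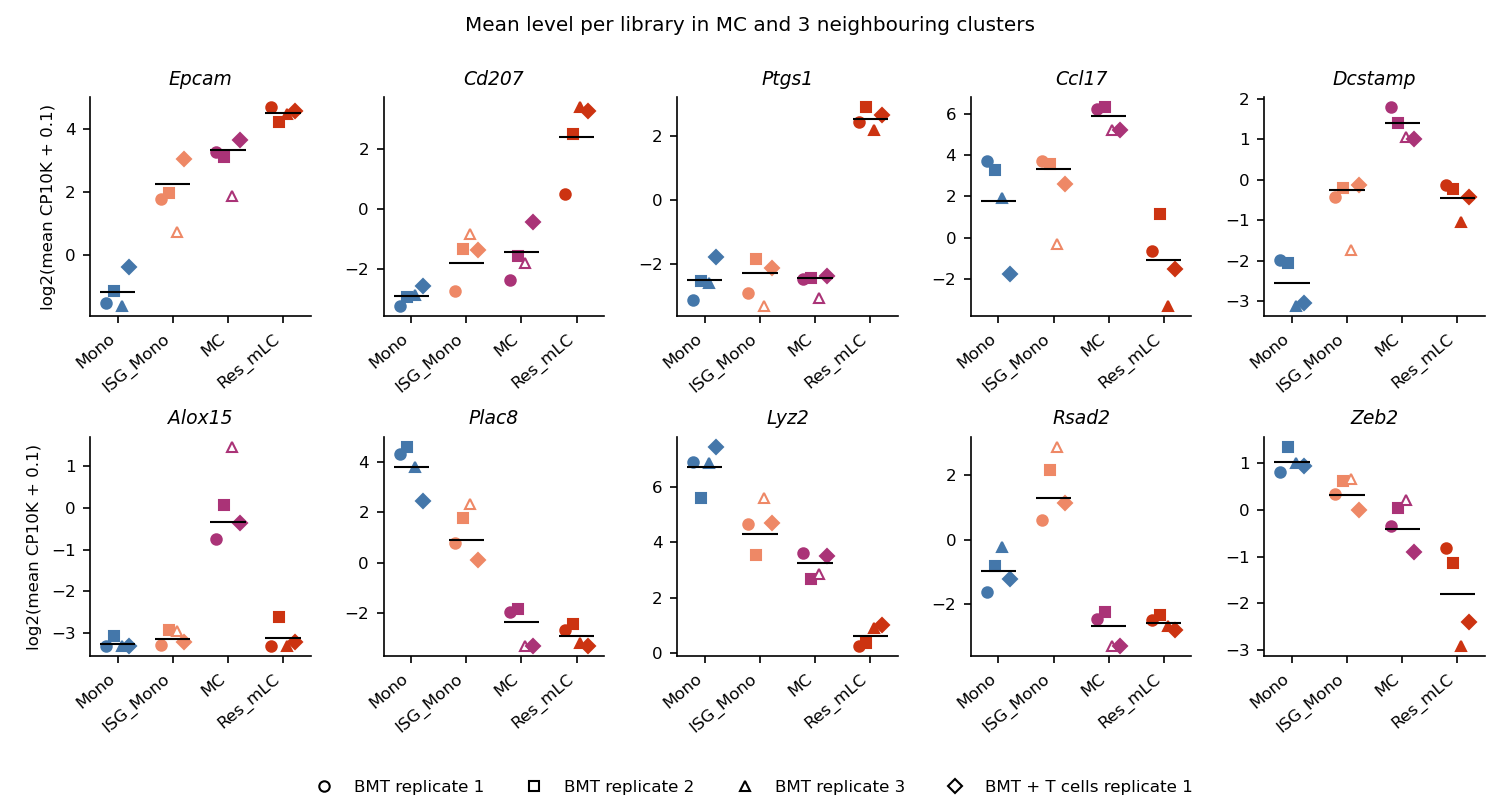
Each panel plots the mean level of 1 gene as log2(CP10K + 0.1) in Mono, ISG_Mono, MC and Res_mLC, with 1 point per library (symbol by library, open where the cluster had under 20 cells) and a black line at the mean of the libraries with at least 20 cells. Among these 4 clusters, Epcam climbs from Mono to Res_mLC and Ptgs1 is high in Res_mLC alone. Among the same 4 clusters, Ccl17, Dcstamp and Alox15 peak in MC, and Plac8 and Lyz2 descend.

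Genes of Langerhans cell identity mostly lay between Mono and Res_mLC in MC, nearer to Mono. Of 12 genes tested from a list of resident Langerhans-like cell genes, 3 were called higher in MC than in Mono (Epcam, Mfge8 and Cldn1) and 10 were called lower than in Res_mLC, with list medians of 1.58 and -3.22 on the log2 scale. The difference from Mono was above 0 for 11 of the 12, and the difference from Res_mLC was below 0 for all 12. Mfge8, a secreted protein that bridges dying cells to phagocytes, stood at 5.34, 9.34, 8.20 and 4.60 CP10K in MC, against 32.6, 56.8, 52.9 and 44.4 CP10K in Res_mLC, and MC lay 3.06 ± 0.66 above Mono. Cldn1, a tight junction claudin, stood at 0.616, 1.20, 0.543 and 0.838 CP10K in MC and differed by 2.49 ± 0.26 from Mono and by -2.50 ± 0.26 from Res_mLC. In both genes all 4 MC libraries lay below all 4 Res_mLC libraries and above the Mono level of their own library.

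Cdh1, which encodes E-cadherin, stood at 4.43, 7.74, 3.85 and 3.74 CP10K in MC, above Mono in every library (2.01, 2.84, 1.26 and 0.142 CP10K) though not called (2.25 ± 0.70), and its difference from Res_mLC was -0.30 ± 0.70. Other identity genes were far lower in MC than in Res_mLC. Cd207 stood at 0.0961, 0.240, 0.186 and 0.643 CP10K in MC and at 1.31, 5.50, 10.4 and 9.50 CP10K in Res_mLC, a difference of -3.77 ± 0.50. Ptgs1, the cyclooxygenase that starts prostaglandin synthesis, stood at 0.0792, 0.0831, 0.0203 and 0.0922 CP10K in MC and at 5.28, 7.36, 4.41 and 6.24 CP10K in Res_mLC. Its MC level did not separate from Mono (-0.06 ± 0.31) and differed from Res_mLC by -5.10 ± 0.31. The 5 genes furthest below Res_mLC were H2-M5, a non-classical MHC class I gene (-5.11 ± 0.36), Ptgs1, P2rx2, an ATP-gated channel subunit (-4.48 ± 0.33), Cacna1e, a voltage-gated calcium channel subunit (-4.05 ± 0.44), and Rgs18, a regulator of G protein signalling (-3.79 ± 0.27).

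Most classical monocyte genes tested were lower in MC than in Mono, by unequal amounts. Of 13 genes tested, 8 were called lower in MC than in Mono and 4 lower than in ISG_Mono, while 4 were still called higher than in Res_mLC, with list medians of -2.63, -0.67 and 1.09. Plac8, a gene of circulating monocytes, stood at 19.8, 24.3, 13.8 and 5.38 CP10K in Mono and at 0.160, 0.175, 0 and 0 CP10K in MC, a difference of -6.05 ± 0.45 from Mono and of 0.65 ± 0.45 from Res_mLC. Lysozyme 2 (Lyz2), a bacteria-degrading enzyme of monocytes and macrophages, stood at 120, 48.4, 115 and 174 CP10K in Mono and at 12, 6.32, 7.19 and 11.3 CP10K in MC. Res_mLC held 1.08, 1.17, 1.76 and 1.93 CP10K of Lyz2. MC were thus -3.48 ± 0.27 from Mono and 2.60 ± 0.27 from Res_mLC, with no overlap between the clusters in either comparison. Ccr2, the receptor that draws monocytes out of the blood, stood at 0.522, 0.489, 2.23 and 0.858 CP10K in MC against 1.02, 0.984, 2.25 and 2.39 CP10K in Mono (-1.05 ± 0.35, not called), and was 2.62 ± 0.35 above Res_mLC. Fn1, which encodes fibronectin, and Chil3, a chitinase-like protein, were also called above Res_mLC (2.74 ± 0.37 and 2.14 ± 0.57).

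The genes by which the study recognised MC, Ccl17, Mgl2, Dcstamp and Itgax, are linked to monocyte-derived dendritic cells and were chosen on these same libraries, so their height in MC is not independent evidence. Of the 4, 3 were called higher than in Mono, none than in ISG_Mono and 2 than in Res_mLC. Ccl17, a chemokine that attracts CCR4-bearing T cells, stood at 75.1, 79.9, 37.3 and 36.5 CP10K in MC. Mono held 13, 9.74, 3.72 and 0.201 CP10K of Ccl17, ISG_Mono 13.1, 11.9, 0.698 and 6.02 CP10K, and Res_mLC 0.542, 2.16, 0 and 0.247 CP10K. Every MC library thus lay above every library of the other 3 clusters. The difference was 3.75 ± 1.01 from Mono, 2.61 ± 1.06 from ISG_Mono, which was not called, and 6.63 ± 1.01 from Res_mLC. Among the 9 clusters Ccl17 was as high in the migrating Langerhans-like cells (Mig_mLC), with 69.1 ± 7.10 CP10K (SD, n = 2 libraries) against 63.8 ± 23.8 in MC (SD, n = 3 libraries). It was spread over the cluster, with the tenth of MC cells richest in it holding 32.9%, 31.0%, 42.1% and 40.3% of its level.

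Dcstamp, which encodes a membrane protein of dendritic cells and fusing osteoclasts, stood at 3.37, 2.56, 1.97 and 1.91 CP10K in MC and was 3.75 ± 0.28 above Mono, 1.66 ± 0.29 above ISG_Mono and 1.65 ± 0.28 above Res_mLC. Itgax, the integrin chain CD11c, stood at 7.61, 7.81, 9.71 and 6.48 CP10K in MC and was 2.30 ± 0.26 above Mono. Mgl2, a galactose-binding lectin of dermal dendritic cells and macrophages, stood at 5.47, 7.25, 6.62 and 2.97 CP10K in MC against 0.858, 1.53, 5.0 and 7.33 CP10K in Mono. MC exceeded Mono for Mgl2 in the 3 BMT libraries but not in the BMT + T cells library, and the difference (1.04 ± 0.65) was not called. Mig_mLC held 3.07 ± 0.768 CP10K of Dcstamp and 6.26 ± 1.48 of Mgl2 (SD, n = 2), above the MC means of 2.62 ± 0.732 and 5.23 ± 2.15 (SD, n = 3). Itgax was lower in Mig_mLC, at 4.77 ± 0.387 against 7.30 ± 0.717 CP10K in MC.

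Besides these genes, 3 genes were called higher in MC than in all 3 neighbours (0.0413% of those tested) and none was called lower than in all 3. With a pseudocount of 1 or with means of the log values none of these 3 calls held, and Ccl17 was called instead. They were Alox15, a lipoxygenase that makes hydroxy fatty acids, Mmp12, the macrophage elastase, and Aqp3, a water and glycerol channel. Alox15 (chromosome 11, positions 70344147 to 70390538) stood at 0.492, 0.955, 2.67 and 0.680 CP10K in MC and at no more than 0.0626 CP10K in any library of Mono, ISG_Mono or Res_mLC. Its differences were 3.03 ± 0.40, 2.80 ± 0.42 and 2.89 ± 0.40 from Mono, ISG_Mono and Res_mLC. Few MC cells carried it: in cells drawn down to 2000 UMIs it was detected in 4.26%, 9.0%, 20% and 7.41% of MC cells, and the tenth of cells with the most Alox15 held 91.4% of its level in BMT replicate 2 and 100% in the other libraries.

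Mmp12 (chromosome 9, positions 7344397 to 7360461) stood at 1.47, 1.53, 0.221 and 1.13 CP10K in MC, with differences of 2.91 ± 0.28, 2.06 ± 0.29 and 2.87 ± 0.28. Outside BMT replicate 3 it was detected in more cells than Alox15. The shares of MC cells were 21.3%, 22.1%, 0% (0 of 10, which allows up to 30%) and 14.8%. Aqp3 (chromosome 4, positions 41092724 to 41098183) stood at 0.421, 0.783, 1.21 and 0.456 CP10K, with differences of 2.30 ± 0.24, 2.50 ± 0.25 and 2.51 ± 0.24. Over the 9 clusters the level nearest to that of MC was outside the neighbours for all 3 genes. Mig_mLC held 0.740 ± 0.170 CP10K of Aqp3 (SD, n = 2), above the 0.553 ± 0.200 of MC (SD, n = 3). They held 0.482 ± 0.0283 CP10K of Alox15 against 0.709 ± 0.233 in MC. The Mrc1_Mac macrophages held 1.00 ± 0.525 CP10K of Mmp12 (SD, n = 4) against 1.37 ± 0.214 in MC. Which genes were called above all 3 neighbours depended on single libraries: without BMT replicate 2, which holds most MC cells, it was Mmp12 alone, without BMT replicate 1 Actn1 took the place of Mmp12, and without the BMT + T cells library Mucl1 did (Actn1 is named here after its values were seen).

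Of 10 genes tested that mark migrating dendritic cells, only Ccl22, a chemokine that shares the receptor CCR4 with Ccl17, was called, and it was higher in MC than in Mono (2.00 ± 0.40) and Res_mLC (2.81 ± 0.40). It stood at 0.663, 1.42, 1.73 and 1.32 CP10K in MC, far under the 31.3 ± 6.09 CP10K of Mig_mLC (SD, n = 2). Ccr7, the receptor that guides dendritic cells to lymph nodes, stood at 0.0299, 0.0185, 0 and 0.126 CP10K in MC, and its difference from Mono was 0.17 ± 0.27.

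Interferon-stimulated genes, which encode proteins that block viruses and are switched on by type I interferon, were lower in MC than in ISG_Mono. Of 13 genes tested from that list, 8 were called lower in MC than in ISG_Mono, with a list median of -2.28, and none was called against Mono (median -0.88) or Res_mLC (median 0.09). Because the study named ISG_Mono by such genes, the first count describes the cluster boundary. Rsad2, which encodes the antiviral enzyme viperin, stood at 1.44, 4.35, 7.31 and 2.11 CP10K in ISG_Mono and at 0.0795, 0.107, 0 and 0 CP10K in MC, a difference of -4.00 ± 0.35. Every MC library lay below every ISG_Mono library and near the Res_mLC level (0.0769, 0.0967, 0.0554 and 0.0412 CP10K). The other genes furthest below ISG_Mono were Ccl5, a chemokine for T cells and monocytes (-3.37 ± 0.56), Plac8 (-3.27 ± 0.47), Ifit3, which binds viral RNA complexes (-3.11 ± 0.45), and Cmpk2, a mitochondrial nucleotide kinase (-2.73 ± 0.30).

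The promoters of these genes were searched, since members that move together may share a motif. The core of the interferon-stimulated response element, read as GAAA, any 2 bases and GAAA again on either strand, was found within 250 bases before the start site of 10 of the 18 genes called lower in MC than in ISG_Mono that had a RefSeq promoter (55.6%), against 3.68% of all tested genes with a promoter and 3.46% of 27025 genes. Because the study named ISG_Mono by interferon-stimulated genes, the 55.6% describes that cluster boundary and is not independent evidence. None of the 20 genes called higher in MC than in Mono with a promoter held the core, and 8 of the 78 called higher than in Res_mLC did (10.3%). Of the 7 interferon-stimulated list genes with the motif, 4 of those called lower in MC than in ISG_Mono are shown as examples, 5′ to 3′ on the gene's strand, from RefSeq on GRCm38.p6, with the motif in capitals (TTTC, 2 bases and TTTC where it lies on the other strand).
Rsad2, chr12:26456533-26456602, minus strand: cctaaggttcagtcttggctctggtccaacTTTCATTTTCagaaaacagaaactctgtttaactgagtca
Ifit1, chr19:34640755-34640824, plus strand: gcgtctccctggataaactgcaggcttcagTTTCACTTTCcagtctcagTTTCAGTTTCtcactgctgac
Ifit3, chr19:34583343-34583416, plus strand: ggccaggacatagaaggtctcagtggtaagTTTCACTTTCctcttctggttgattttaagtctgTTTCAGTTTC
Isg15, chr4:156200857-156200926, minus strand: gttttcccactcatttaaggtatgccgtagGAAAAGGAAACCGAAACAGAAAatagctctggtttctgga
Ccl17, the gene furthest above Res_mLC, held no such core but TTC, any 4 bases and GAA, which has the spacing of a STAT6-type element and reads the same on both strands. It was held by 2 of the 20 genes above Mono (Ccl17 and Itgax, 10.0%) and by 6 of the 78 genes above Res_mLC (7.69%). It was held by 27.8% of the 18 genes below ISG_Mono and by 5.82% of the tested genes. The share above Res_mLC thus lay near that of the tested genes, and the share above Mono rests on 2 genes. The element is shown in capitals.
Ccl17, chr8:94810269-94810338, plus strand: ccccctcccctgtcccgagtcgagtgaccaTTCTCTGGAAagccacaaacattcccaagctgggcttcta
The Ccl17 and Ifit3 windows lie inside the annotated gene spans, which begin at positions 94809380 and 34583119. The start sites used for these genes are therefore internal to the span. A match describes the letters of these windows and shows no binding.

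**Figure D3:**
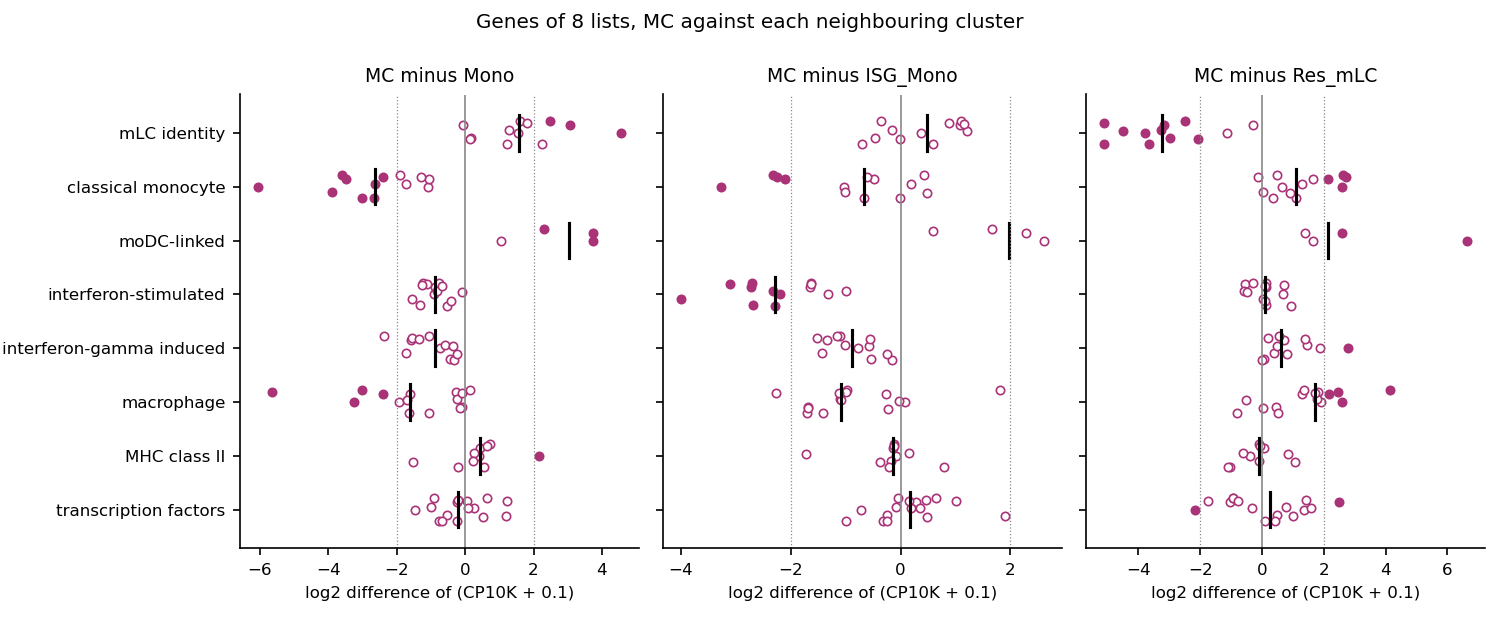
Each point is 1 gene of the list named at the left, at its log2 difference between MC and Mono, ISG_Mono or Res_mLC (horizontal axes, log2 difference of CP10K + 0.1). Filled points were called, dotted lines mark 2 and -2, and black bars mark list medians, such as -2.63 for the classical monocyte list against Mono, -2.28 for the interferon-stimulated list against ISG_Mono and -3.22 for the mLC identity list against Res_mLC.

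Genes induced by interferon-gamma, the T cell cytokine, gave 1 call among 12 tested, Cxcl9, a chemokine for activated T cells, which was higher in MC than in Res_mLC (2.78 ± 0.71). It stood at 9.66, 9.86, 2.75 and 2.68 CP10K in MC and at 0.482, 1.81, 0.00778 and 0.685 CP10K in Res_mLC. None of the 12 was called against Mono or ISG_Mono. Of the 10 MHC class II genes tested, H2-DMb2, a chain of the peptide-editing molecule H2-DM, was called higher in MC than in Mono (2.17 ± 0.24), and none was called against ISG_Mono or Res_mLC.

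Some macrophage genes were lower in MC than in Mono, and others were above Res_mLC. Of 15 tested, 4 were called lower than in Mono (Apoe, Adgre1, Maf and Ccl8) and 4 higher than in Res_mLC (Ms4a7, Fcgr1, Ccl24 and Trem2), with list medians of -1.62 and 1.70. C1qa, a chain of complement C1q, did not follow the list against Mono (0.15 ± 0.41): it stood at 13.4, 14.8, 9.61 and 18 CP10K in MC and at 6.32, 10.2, 16.4 and 23 CP10K in Mono, higher in MC in BMT replicates 1 and 2 and lower in the other libraries. Ccl8, a chemokine for monocytes, stood at 1.60, 9.18, 10.6 and 13.8 CP10K in Mono and at 0.0437, 0.207, 0 and 0.00704 CP10K in MC. Adgre1, which encodes F4/80, stood at 1.21, 1.63, 2.09 and 2.57 CP10K in Mono and at 0.256, 0.423, 0.511 and 0.214 CP10K in MC (-2.40 ± 0.29). In both genes each MC library lay below each Mono library.

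Ccl24, a chemokine for eosinophils, varied widely between libraries: it stood at 5.4, 20.3, 26.9 and 0.367 CP10K in MC, so that the BMT + T cells library lay far below the BMT libraries. The same held for Mono, with 9.04, 20.8, 9.82 and 0.191 CP10K, while Res_mLC held at most 1.98 CP10K in any library. The other genes furthest above Res_mLC, after Ccl17, were AA467197 (4.62 ± 0.75), Srgn, the proteoglycan core protein serglycin (4.13 ± 0.33), and F10, coagulation factor X (4.08 ± 0.31). F10 stood at 2.90, 3.03, 3.06 and 2.83 CP10K in MC, nearly the same level in each library, against at most 0.207 CP10K in Res_mLC, while Mono held 5.51, 4.44, 1.87 and 1.11 CP10K, above MC in BMT replicates 1 and 2 and below it in the other libraries (0.03 ± 0.31).

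Among 16 transcription factors that the study examined, none was called between MC and Mono or ISG_Mono, and 2 were called between MC and Res_mLC. Zeb2, a repressor that maintains macrophage identity, descended through the clusters without being called: it stood at 0.683, 0.931, 1.06 and 0.432 CP10K in MC, 1.64, 2.43, 1.89 and 1.80 CP10K in Mono and 0.471, 0.357, 0.0331 and 0.0910 CP10K in Res_mLC. Its differences were -1.47 ± 0.31 from Mono, -0.72 ± 0.33 from ISG_Mono and 1.35 ± 0.31 from Res_mLC. Ahr, the aryl hydrocarbon receptor, was called lower in MC than in Res_mLC (-2.16 ± 0.36), with 0.529, 0.544, 0.443 and 0.352 CP10K in MC against 2.82, 2.28, 1.52 and 2.29 CP10K. Its difference from Mono was -0.20 ± 0.36, and the 3 libraries did not share a sign. Irf4, a factor of dendritic cells that drives migration and T cell priming, was called higher in MC than in Res_mLC (2.50 ± 0.40) and stood at 0.476, 1.01, 1.90 and 0.742 CP10K in MC. Mig_mLC held more Irf4, at 1.67 ± 0.625 CP10K (SD, n = 2) against 0.742 ± 0.265 in MC (SD, n = 3). Id2 and Runx3, factors that Langerhans cells need, were -1.04 ± 0.19 and -0.94 ± 0.40 from Res_mLC and were not called.

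Few metabolic genes passed the threshold. Of 21 amino acid genes tested, 2 were called, both higher in MC than in Res_mLC: Slc7a2, a transporter of arginine (3.34 ± 0.43), and Ass1, an enzyme that rebuilds arginine (2.75 ± 0.37). Of 14 lipid handling genes, Cd36, a fatty acid transporter (3.23 ± 0.60), and Fabp5, a fatty acid binding protein (3.20 ± 0.31), were called higher than in Res_mLC. No gene of the 20 for fatty acid oxidation or the 16 for glycolysis was called in any of the 3 comparisons, although 15 of the 16 glycolysis genes had a difference above 0 against Res_mLC (median 0.48, against -0.13 over all genes). Signalling lists gave few calls: Axl, a receptor that acts in Langerhans cell differentiation, was called above Res_mLC (2.28 ± 0.29) among 10 TGF-beta pathway genes, Ccr2 and Cmklr1 (2.23 ± 0.21) among 6 chemokine receptors, Clec10a was called below Mono and Irf4 above Res_mLC among 6 genes of dendritic cell lineage, and none was called among 4 Notch pathway genes and 5 colony-stimulating factor receptor genes.

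Summed markers of other cell types were low in MC. The summed level of 9 keratinocyte genes was 0.724, 1.07, 0.360 and 0.314 CP10K in MC, against 0.713, 2.23, 0.569 and 0.779 CP10K in Mono, with 0, 0, 6 and 4 of the genes without a UMI. For 10 T cell genes the sums were 0.201, 0.193, 0.527 and 0.0760 CP10K, with 3, 0, 9 and 9 genes without a UMI. For 7 neutrophil genes they were 0.711, 1.61, 1.16 and 0.191 CP10K, with 3, 0, 5 and 3 genes without a UMI, against 3.77, 3.33, 0.337 and 0.621 CP10K in Mono. Of these MC sums, Cxcr2 gave 0.379, 0.658, 0.781 and 0.0455 CP10K. No gene of these lists was called in the 3 comparisons, nor was any of 14 cell cycle genes. At a log2 threshold of 1 in place of 2, Cxcr2 was called higher in MC than in all 3 neighbours.

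Single cells were then compared at an equal depth of 2000 UMIs, drawn at random from each cell, which kept 352, 1577, 10 and 27 MC cells and left out 42, 33, 8 and 3 shallower ones. Epcam was detected in 58.5%, 59.4%, 40% and 59.3% of MC cells. In Mono the share was 3.75%, 5.50%, 2.53% and 5.26%, which serves as the level of a cell type that should lack it, and in Res_mLC it was 95.5% or more. Without drawing down, the mean share over the 3 larger libraries of MC was 76.8%. Ccl17 was detected in 85.8%, 89.6%, 90% and 74.1% of MC cells and in 8.14%, 18.6%, 0% (0 of 47, which allows up to 6.38%) and 2.18% of Res_mLC cells. Lyz2 was detected in 63.6%, 51.0%, 60.0% and 74.1% of MC cells, above the 19.8%, 17.2%, 17% and 20% of Res_mLC. Cd207 was found in 1.42%, 3.74%, 10.0% and 7.41% of MC cells and Ahr in 8.52%, 9.13%, 10.0% and 11.1%, against 31.4%, 34.4%, 27.7% and 24.0% of Res_mLC cells for Ahr. In Mono, Cd207 was found in 0% (0 of 240, which allows up to 1.25%) and 0.569% (0.118 to 1.65) of the cells of BMT replicates 1 and 2. The MC share was 3.74% (2.86 to 4.80) in BMT replicate 2, while the intervals overlapped in BMT replicate 1. These intervals cover counting error over the cells of 1 library and are no test between clusters. The keratinocyte gene Krt14, which should be absent from donor marrow-derived cells, was found in 1.99% and 5.07% of the MC cells of the same libraries. These shares were above those of Cd207, and whether stray RNA adds to the Cd207 shares was not tested.

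**Figure D4:**
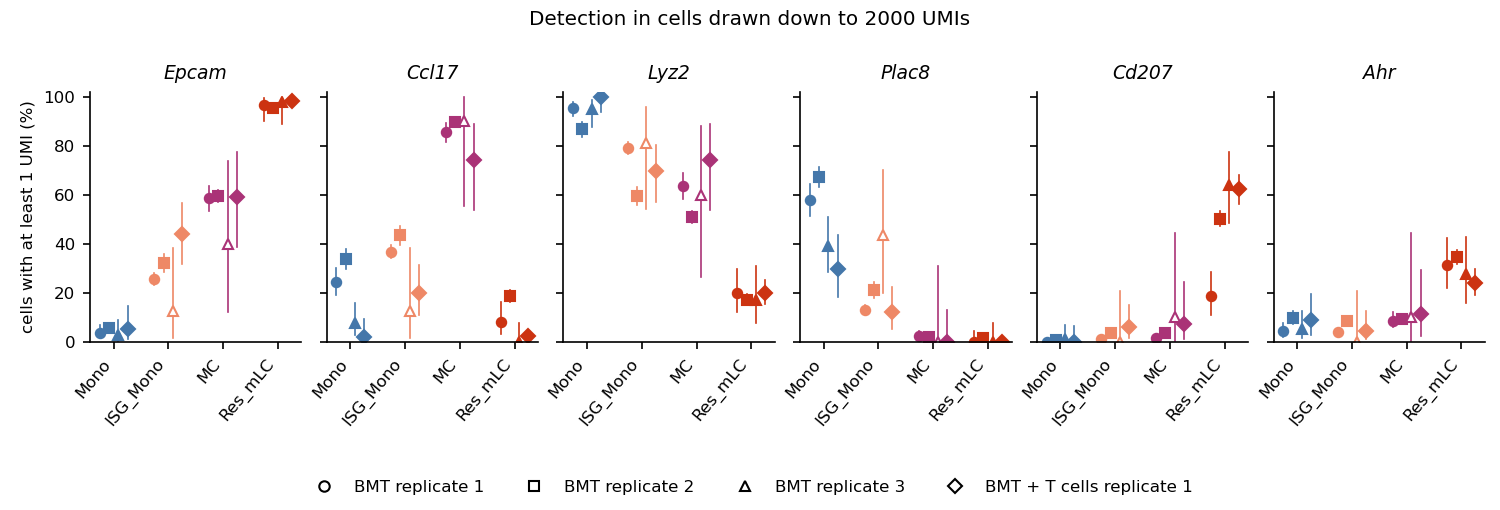
The share of cells with at least 1 UMI of 6 genes (vertical axis, percent) is plotted for Mono, ISG_Mono, MC and Res_mLC in cells drawn down to 2000 UMIs, 1 point per library (open under 20 cells) with exact 95% Clopper-Pearson intervals. MC hold Epcam in 58.5% and 59.4% of cells in the 2 largest libraries, between the Mono and Res_mLC shares, while Ccl17 is found in most MC cells and Plac8 in hardly any.

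Epcam and monocyte transcripts occurred together in single cells of MC, and also of Res_mLC. Cells with Epcam and at least 1 of Plac8, Lyz2 and Ly6c2 made up 37.2%, 30.2%, 30% and 44.4% of MC, against 3.75%, 5.12%, 2.53% and 5.26% of Mono and 22.1%, 20%, 19.1% and 20% of Res_mLC. In ISG_Mono the shares were 19%, 17.2%, 12.5% and 28.8%. With any of the 14 monocyte genes in place of these 3, the MC shares were 56.8%, 56.4%, 40% and 59.3% and those of Res_mLC were higher, at 84.9%, 75.9%, 80.9% and 83.3%, so the order of MC and Res_mLC turned with the genes counted. Per cell of 2000 UMIs, the 12 identity genes gave a median of 4, 4, 4 and 3 UMIs in MC and the 14 monocyte genes 5, 4, 6.5 and 5 UMIs. Mono cells held 0 or 1 UMI of the identity genes at the median and 26 to 45 of the monocyte genes, and Res_mLC cells 20 to 26 and 2 or 3. Doublets had been removed by the authors and were not looked for again, and whether cells that share a droplet or free RNA add to these shares was not tested.

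Some other genes differed within MC with Epcam in the same direction in every library, and others did not. With MC cells of each library split by whether they held an Epcam UMI, Lyz2 was lower in the cells with Epcam in every library, at 8.98 against 19.6, 4.68 against 8.93, 5.0 against 8.33 and 10.3 against 18.2 CP10K. Cd74 was higher in the cells with Epcam in every library, at 314 against 246, 224 against 178, 368 against 286 and 393 against 310 CP10K. Ccl17 was lower in them, at 72.6 against 97.5, 76.5 against 87.3, 50 against 78.3 and 34.4 against 48.2 CP10K, so Ccl17 was present on both sides of the split. Ccl24 followed the same direction in every library, with 2.77 against 10.1 CP10K in BMT replicate 1 and 10.7 against 35.0 CP10K in BMT replicate 2, and Irf4 stood at 0.764 against 1.18 CP10K in BMT replicate 2. The monocyte gene Ly6c2 changed direction, at 0.801 against 0.616, 0.577 against 0.819, 1.25 against 0 and 0.3125 against 0 CP10K. Mfge8, Cd207, Mgl2, Dcstamp, C1qa and Runx3 were among the genes that also changed direction between libraries. These are means over cells of 1 library each, with 4 and 6 cells in BMT replicate 3, and they carry no test.

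On the latent time that the authors derived from RNA velocity, a scale from 0 to 1 over the donor cells, MC lay early. The library means for MC were 0.242, 0.234, 0.333 and 0.25, close to those of Mono (0.232, 0.251, 0.314 and 0.313) and above those of ISG_Mono (0.180, 0.193, 0.203 and 0.225). Res_mLC lay at 0.562, 0.511, 0.636 and 0.624, every library above every MC library.

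The labels allow 1 test inside MC, of the BMT + T cells library against BMT. The sample labels were not used to draw the clusters, so this difference was tested, but only 3 libraries had at least 20 MC cells, which left 1 residual degree of freedom, and the lone BMT + T cells library was assumed to vary like the BMT libraries. Of 6840 genes, 365 were called higher in the BMT + T cells library (5.34%) and 204 lower (2.98%) at an absolute log2 difference above 1 and a limma adjusted p under 0.05. With BMT replicate 3 included (18 MC cells), 0 of 6879 genes were called (0%), with 221 at an unadjusted p under 0.05, against 2468 without it. With MC cells under 2000 UMIs left out and the rest drawn down to that depth, 588 genes were called higher and 1136 lower, so the balance of directions depended on this setting. Among the libraries with 20 MC cells or more, the label and the pairs of library names cannot be told apart.

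Most interferon-gamma induced genes tested were called lower in the BMT + T cells library. Of 12 tested, 7 were called lower (Cxcl9, Gbp2, Gbp5, Iigp1, Socs1, Irf1 and Nos2) and none higher, with a list median of -1.39 against 0.01 over all genes. Cxcl9 stood at 9.66 and 9.86 CP10K in BMT replicates 1 and 2 and at 2.68 CP10K in the BMT + T cells library (-1.83 ± 0.25, limma adjusted p = 9.99e-05). Iigp1, an interferon-induced GTPase against vacuolar pathogens, stood at 2.03 and 2.51 against 0.351 CP10K (-2.39 ± 0.24, limma adjusted p = 5.88e-06). Gbp2, a guanylate-binding protein of the same defence, stood at 2.90 and 3.64 against 1.14 CP10K. In BMT replicate 3, which has the BMT label, the 3 genes stood at 2.75, 0.529 and 1.18 CP10K, at the level of the BMT + T cells library rather than that of the other BMT libraries. The Iigp1 level of BMT replicate 3 rested on 6 UMIs in 1 of its 18 MC cells. With BMT replicate 3 in the model the list median was -0.88, and Cxcl9 was -1.23 ± 0.75 (limma adjusted p = 0.963).

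Of the genes that mark MC, Ccl17 and Mgl2 were called lower in the BMT + T cells library. Ccl17 stood at 75.1 and 79.9 against 36.5 CP10K (-1.08 ± 0.28, limma adjusted p = 0.0112), and BMT replicate 3 again lay with the BMT + T cells library at 37.3 CP10K. Mgl2 stood at 5.47, 7.25 and 6.62 CP10K in the BMT libraries and at 2.97 CP10K in the BMT + T cells library (-1.06 ± 0.25, limma adjusted p = 0.00715), so here all 3 BMT libraries lay above it. Epcam (0.45 ± 0.25, limma adjusted p = 0.214) and Cd74 (0.53 ± 0.32, limma adjusted p = 0.249) were not called.

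The 5 genes furthest down were Ccl5 (-4.29 ± 0.27, limma adjusted p = 6.19e-08), Iigp1, F7, coagulation factor VII (-2.25 ± 0.26), Cd200r4, a CD200 receptor family member (-2.22 ± 0.22), and Cxcr2, a chemokine receptor of neutrophils (-2.05 ± 0.26). Ccl5 stood at 3.59, 2.21 and 2.03 CP10K in the BMT libraries and at 0.0497 CP10K in the BMT + T cells library, where it rested on 3 UMIs in 2 cells. Cxcr2 stood at 0.379, 0.658 and 0.781 CP10K in the BMT libraries and at 0.0455 CP10K in the BMT + T cells library. There it rested on 6 UMIs in 2 cells. For both genes all BMT libraries, with BMT replicate 3, lay above the BMT + T cells library. In BMT replicate 3, however, Ccl5 rested on 62 UMIs in 3 of 18 cells, with 84.4% of its level in 1 cell. Cxcr2 rested on 22 UMIs in 3 cells of that library.

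The 5 genes furthest up rested on single cells. Mucl1 (4.21 ± 0.23, limma adjusted p = 1.46e-08) had 1704 UMIs in the BMT + T cells library, of which 1703 were in 1 of the 30 MC cells. The others, F630028O10Rik, Anln, Pisd-ps2 and 2010013B24Rik, had 2 to 7 UMIs there, and 1 cell gave 94.3% to 100% of the level of each. In the list as a whole, 209 of the 365 genes called higher had over 50% of their level in 1 cell (57.3%), against 13.6% of all genes tested. For 192 of these 209 genes that cell was 1 of 3 MC cells with 1467 to 1800 UMIs, in which a single UMI weighs most. Named genes of the lists that were called higher were Cd207 (1.52 ± 0.29), Trem2, a lipid receptor of macrophages (1.26 ± 0.24), and the cell cycle genes Stmn1 (1.68 ± 0.23) and Birc5 (1.95 ± 0.25), among 4 of 13 cell cycle genes called. Cd207 stood at 0.0961 and 0.240 against 0.643 CP10K and Stmn1 at 0.430 and 0.474 against 1.67 CP10K, and none of these genes was called with BMT replicate 3 in the model.

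Keratinocyte and neutrophil genes were also among those called. Krt5 and Krt14, both of the keratinocyte genes tested, were called lower in the BMT + T cells library (-1.57 ± 0.26 and -1.12 ± 0.24), as were S100a8 and Cxcr2 of 3 neutrophil genes. In BMT replicate 3 Krt14 stood at 0 CP10K, below the 0.0964 CP10K of the BMT + T cells library, whereas Krt5 stood at 0.311, S100a8 at 0.382 and Cxcr2 at 0.781 CP10K, beside or above the other BMT libraries, and with it in the model none of the 4 was called. The summed levels of these lists in the same libraries are given above, and their part in the label comparison was not tested. Of the other lists, 2 of 10 classical monocyte genes (Plac8 and Chil3) were called lower, and 3 of 9 identity genes (Cd207, Lpar3 and Hpgds) and 3 of 12 macrophage genes (Apoe, Pf4 and Trem2) were called higher. The Notch, TGF-beta, amino acid, glycolysis, lipid and transcription factor lists had at most 2 genes called in a direction, and 0 were called in the lists for MHC class II, dendritic cell lineage, migrating dendritic cells, colony-stimulating factor receptors, chemokine receptors, fatty acid oxidation and T cells.

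**Figure D5:**
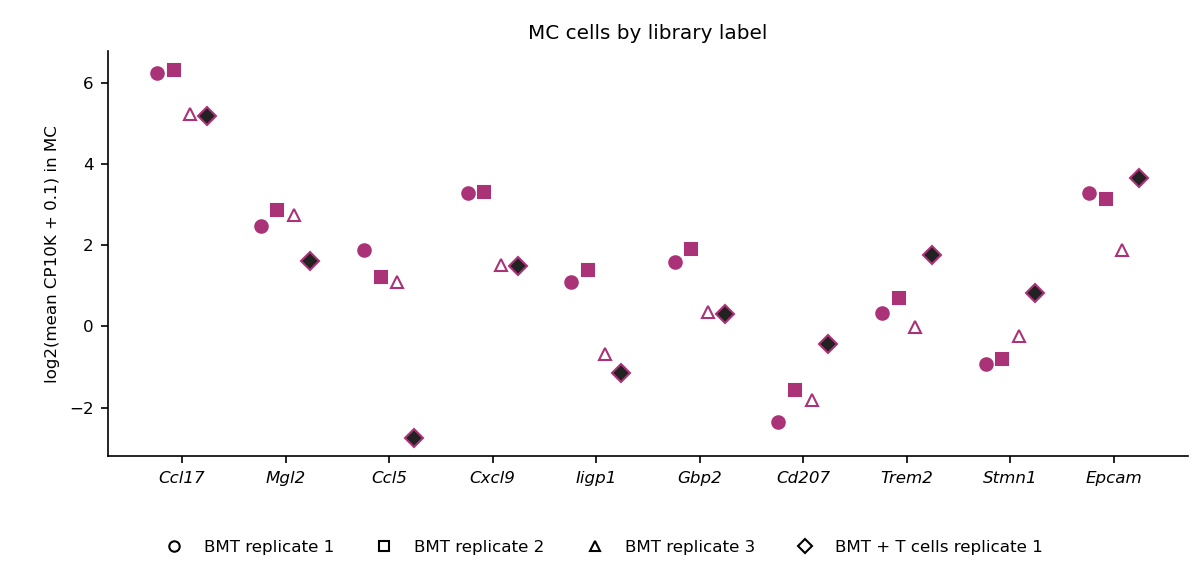
The level of 10 genes in MC is plotted as log2(CP10K + 0.1) by library, with BMT replicates 1 and 2 as filled circles and squares, BMT replicate 3 (18 cells) as open triangles and the BMT + T cells library as dark diamonds. For Ccl17, Cxcl9, Iigp1 and Gbp2 BMT replicate 3 sits beside the BMT + T cells library, while for Ccl5 and Mgl2 it sits with the other BMT libraries. In BMT replicate 3 the Iigp1 point rests on 1 cell with a UMI and the Ccl5 point on 3.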

How the data were processed

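Donor CD11b+MHCII+ epidermal cells were sequenced as 10x 5′ libraries. According to the submitters' processing notes and the study's methods, the authors used kallisto, bustools and Seurat on GRCm38 (versions not given in the sources used here), removed cells with under 500 genes or over 20% mitochondrial reads and likely doublets (DoubletFinder), and annotated 9 clusters. Doublets were not called again. The deposited expression values are the natural log of 1 plus UMIs per 10000 UMIs of the cell. The deposited cell annotation gives the mitochondrial percent of each cell, latent time as a fraction from 0 to 1 and cell cycle scores, of which the scores entered no result. Some deposited cells lay above the stated mitochondrial limit, among them 33 MC cells of BMT replicate 1, and they were kept. Files of host cells and keratinocytes were not used here.

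Whole UMIs were recovered for 100% of the values above 0 (tolerance 0.001) over 15155 genes. These genes held 91.3% of the UMIs of the median cell. Linear CP10K was averaged per library and cluster (at least 20 cells, or 10 or 50 as alternatives), and log2(mean + 0.1) of the 7267 genes that averaged 0.1 CP10K or more was fitted in limma 3.58.1 (R 4.3.3, statmod 1.5.0; trend and robust) over all clusters with the library as a block. The library is the same sample for every cluster, so it pairs them. Genes were called at an absolute log2 difference above 2 (1 for the label comparison within MC) and a Benjamini-Hochberg adjusted p under 0.05. Other steps ran in Python 3.11.15 with SciPy 1.17.1, matplotlib 3.10.9, NumPy 2.4.6 and pandas 2.3.3. The fitting code was tested on simulated data. Precision follows depth: intervals and floors (3 counts) cover counting error only.

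The cluster and 22 gene lists (298 genes, of which 20 are not in the donor table) were chosen with earlier results of these data known. Genes were named from the lists and, per comparison, as the 5 called genes with the largest difference in each direction and the same sign in every library, plus those called against all 3 neighbours and the 5 largest called in each direction for the labels. Alternatives were pseudocounts of 1 and 0.01, no filter, 4 clusters in the fit, other cell minimums, means of the log values, limma-voom on summed UMIs, cells drawn down to 2000 or 4000 UMIs, no library block, a threshold of 1 and leaving out each library. Promoters (250 bases before the start site) and gene positions came from RefSeq on GRCm38.p6. The label comparison of the interferon-stimulated list is not reported here.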

Additional observations from a re-analysis of the deposited data

Results flagged for a closer look

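For 4 genes the MC difference had 1 sign in the BMT libraries with at least 20 MC cells (replicates 1 and 2) and the opposite sign in the BMT + T cells library, and whether these cluster differences differed between the labels was not tested for any of them (the test of the label within MC is another one). Mgl2 stood 2.54 and 2.17 (log2) above Mono in BMT replicates 1 and 2 and, in the BMT + T cells library, at -1.27. The Mono level of Mgl2 rather than that of MC spanned the wider range, with 0.858, 1.53, 5.0 and 7.33 CP10K, so BMT replicate 3 lay with the BMT + T cells library. Runx3 differed from Mono by -0.13 and -0.32 in BMT replicates 1 and 2 and by 1.66 in the BMT + T cells library, where Mono held 1.62 CP10K, and the Mono level of BMT replicate 3 was 1.72 CP10K against 6.13 and 6.62 CP10K in the other BMT libraries. Ahr differed from Mono by 0.69 and 0.14 in BMT replicates 1 and 2 and by -1.02 in the BMT + T cells library. Id2 differed from ISG_Mono by 0.45 and 0.57 in BMT replicates 1 and 2 and by -0.18 in the BMT + T cells library.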

How the results depend on the processing

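The counts of called genes depended on how values near 0 were treated, while no called difference of a named gene reversed its sign in the settings run for it. Against Mono, ISG_Mono and Res_mLC, 67, 23 and 152 genes were called in all. With a pseudocount of 1 these were 9, 3 and 14, with 0.01 they were 147, 38 and 326, with means of the log values 5, 2 and 9, with limma-voom 152, 73 and 288, and at a threshold of 1 they were 306, 105 and 610. With at least 10 cells per cluster 38 genes were called against ISG_Mono. The 3 genes called above all 3 neighbours became 1 with a pseudocount of 1 and with means of the log values (Ccl17 in both), 5 with 0.01 and with cells drawn down to 2000 UMIs, 8 with limma-voom and 10 at a threshold of 1, where 1 gene (Oas3, 2'-5' oligoadenylate synthetase 3) was lower than in all 3. Leaving out each library gave 56 to 80, 5 to 25 and 141 to 156 calls, the low of 5 being without BMT replicate 2, with 1 to 3 genes above and 0 to 0 below all 3 neighbours. Without the library block 59, 21 and 156 genes were called (26, 3 and 99 higher), so the block changed no count by over 1.5 times. Of the values of single genes between clusters, 1155 moved by less than the spread between libraries and 228 by more.

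The 569 label calls became 20 with a pseudocount of 1, 1157 with 0.01, 13 with means of the log values, 86 with limma-voom and 0 with BMT replicate 3 included. Including it and leaving out BMT replicate 1 gave 4 calls, and leaving out BMT replicate 2 gave 3, against 569 without BMT replicate 3, so leaving out a library gave 3 to 569. With shallow cells left out and the rest drawn down, 1724 genes were called (588 higher and 1136 lower, 16 of them opposite to the call reported), a setting chosen after seeing the data. Of the alternative values of single genes, 52 kept their side of the threshold and 44 lost the call. Leaving out BMT replicate 1 or 2 at 20 cells left no residual degrees of freedom and was not run.

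The Epcam share of MC cells (59.0% ± 0.455, SD, n = 3) was 73.9% at 4000 UMIs, 76.8% at the cells' own depth and 54.3% with BMT replicate 3, with 58.9% to 59.3% when a library was left out. The share with Epcam and any monocyte list gene (57.5% ± 1.55) was 73.7%, 75.3% and 53.1% in the same settings, 37.3% with 3 monocyte genes and 56.6% to 58.0% when a library was left out. The list medians per cell (3.67 identity and 4.67 monocyte UMIs) were 7.67 and 10.7 at 4000 UMIs, 20 and 36.2 at own depth, and 3.5 to 4 and 4.5 to 5 when a library was left out. Latent time was 0.242 as a mean and 0.209 as a median over cells. The libraries with 18 and 30 MC cells limit every statement on the label, and the causes of these shifts were not tested.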
